A study of Mus musculus with 18 samples.

Results

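The collagen chain genes were taken as every gene of the deposited table whose symbol reads Col, a type number, the letter a and a chain number. This gave 44 of the 48440 genes, which encode chains of 27 collagen types. The data are poly(A) RNA sequencing of mouse brain, with 18 libraries in 3 groups of 6. The first group was 5xFAD mice fed a fucose diet for 1 month, the second was 5xFAD mice fed the control diet for 1 month, and the third was WT mice fed the control diet for 1 month. 5xFAD mice carry human transgenes that bear familial Alzheimer mutations, driven in neurons by elements of the mouse Thy1 gene, and develop amyloid plaques. The labels name the tissue as brain and give no region, strain, sex or age. Nothing in them ties a library to an animal of its own, and the p-values below therefore speak to library-to-library spread, which may be technical. The values are normalized counts, which are the reads of a gene divided by 1 factor per library.

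Totals ran from 31.4 to 44.2 M reads (median 38.9 M), and 18808 genes, 43 of the 44 chains among them, had enough reads to be tested. Thy1, whose elements drive the transgenes, held 103235 to 152461 (median 124953) normalized counts in the 5xFAD fucose group, 113472 to 158017 (median 135945) in the 5xFAD control group and 40379 to 58895 (median 48678) in the WT control group, so the 5xFAD libraries lay above all WT libraries, as labelled. 3 libraries, 1 in each group, held little Xist, and a call or a relation that changes without them is given beside its value. So is a changed sign of a printed difference, but only for the 25 chains and 18 partner genes named by the rule given under processing. The signs of other printed differences were not followed. In such whole tissue, fewer cells of a type and less RNA per cell cannot be told apart.

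Collagens are proteins of the extracellular matrix in which chains wind around one another in a triple helix, and each chain repeats a triplet that starts with glycine. Fibrillar types form banded fibrils, type IV forms the sheet of basement membranes, type VI forms beaded filaments, and the fibril-associated, transmembrane and multiplexin types decorate or anchor these structures. In brain, collagen is found mainly around blood vessels, in the meninges and in the choroid plexus, and neurons make a few types, among them the transmembrane type XXV, whose shed part is found in amyloid plaques.

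The glycine repeat can be read in the coding sequence as a GG, the start of each glycine codon, that recurs once in 9 bases. The stretches below hold 6 such repeats (54 bases) each, with the GG of each glycine codon in capitals. They were chosen to show the repeat in the chain that passed the test between genotypes (Col5a3) and the most abundant basement membrane chain (Col4a2). They also show it in the chain that followed choroid plexus markers most closely (Col8a2) and in the plaque-associated chain (Col25a1). They come from GENCODE M21 transcripts on mm10 and lie at chr9:20801068-20801121 on the minus strand (Col5a3, exon 15), chr8:11429447-11429500 on the plus strand (Col4a2, within exon 29), chr4:126311132-126311185 on the plus strand (Col8a2, within exon 4) and chr3:130577302-130577355 on the plus strand (Col25a1, exon 32).
Col5a3: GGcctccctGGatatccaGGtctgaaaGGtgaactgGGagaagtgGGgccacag
Col4a2: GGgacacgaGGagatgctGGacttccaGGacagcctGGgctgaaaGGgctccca
Col8a2: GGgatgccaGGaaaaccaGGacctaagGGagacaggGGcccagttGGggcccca
Col25a1: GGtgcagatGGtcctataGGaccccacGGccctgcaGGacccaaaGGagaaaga
The Col5a3 and Col25a1 stretches are whole exons of 54 bases, the unit from which much of the fibrillar genes is built. The 11 fibrillar genes had 21 to 33 coding exons of exactly 54 bases and a longest unbroken run of 216 to 344 repeats. The 6 type IV genes had 1 to 3 such exons and runs of 39 to 66 repeats, the helix of type IV being known for its interruptions. Col8a1, Col8a2 and Col10a1 had 2 coding exons each and none of 54 bases, with runs of 60 to 61 repeats.

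Levels per kilobase of exon, averaged over the 18 libraries, spanned 726 normalized counts per kb for Col6a1 to 1.82 for Col28a1. Col6a1 was followed by Col4a2 (469 normalized counts per kb), Col9a3 (317), Col11a2 (301) and Col16a1 (203). By group, Col6a1 averaged 749.7 ± 176 normalized counts per kb in the 5xFAD fucose group, 672 ± 162 in the 5xFAD control group and 756 ± 258 in the WT control group (SD, n = 6 each), and Col4a2 averaged 530.2 ± 111, 419.8 ± 99.4 and 457 ± 69.3 in the same groups. Col9a3 (296 ± 91.5 in the 5xFAD fucose group) and Col11a2 (299 ± 51.3 there) lay within a SD of one another. The classic fibril chains of skin and bone sat lower on this scale, with Col1a1 at 69.3, Col1a2 at 42.9 and Col3a1 at 8.55 normalized counts per kb. The length used merges all annotated exons of a gene over its transcripts, and ranks per kb depend on it. It was 12.4 kb for Col1a2 and 6.56 kb for Col1a1, while in normalized counts Col1a2 (533) lay above Col1a1 (455). Col10a1, the chain of growth plate cartilage, was listed with 0 reads in 3 libraries and 135 reads over all libraries, and was the chain left untested. A count of 0 allows up to 3 reads in that library, and this limit covers counting error only.

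**Figure D1:**
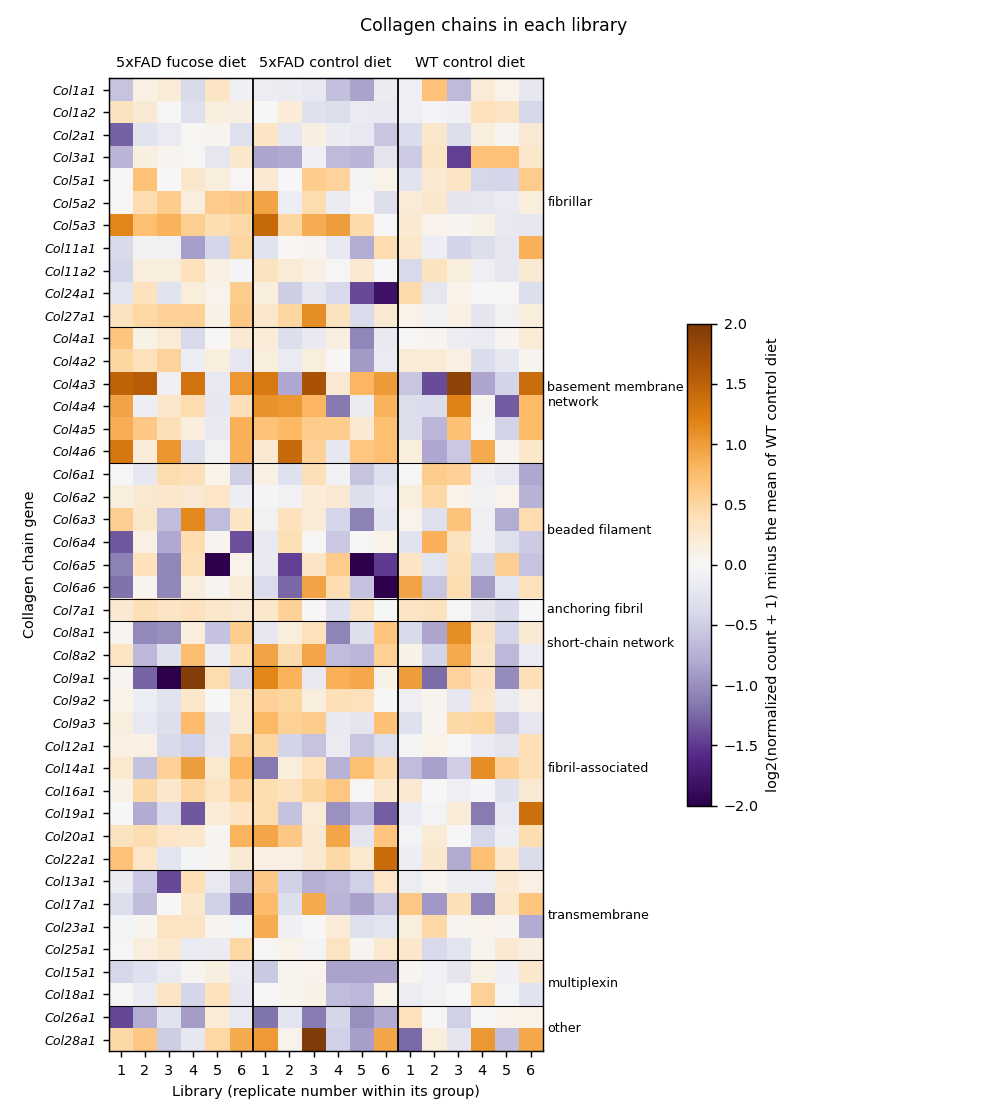
Each row is 1 of the 43 tested collagen chains and each column 1 library, with colour giving log2(normalized count + 1) minus the mean of the WT control group (brown higher, purple lower, colours end at a difference of 2). Col5a3 is brown in nearly all 5xFAD libraries, while most rows vary as much within a group as between groups.

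In the heat map of all tested chains by library, the rows differ in how much they scatter within groups. The pooled SD of log2 values within groups was 0.19 for Col16a1 and 0.20 for Col9a2, against 1.02 for Col4a3 and 1.01 for Col9a1. Reads over all libraries numbered 24943 for Col16a1 and 9646 for Col9a2, against 442 for Col4a3 and 692 for Col9a1. Because the labels do not state whether counting used strand, reads from overlapping genes could not be separated. 13 chains share exon bases with another gene, 10 of them with a gene on the opposite strand, and the largest share was 6.07% of exon bases, in Col9a3.

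Across genotypes on the control diet, 1 of 43 chains was called at a false discovery rate of 5% (limma, Benjamini-Hochberg over all 18808 genes), and it was higher in 5xFAD. That is a share of 2.33%, against 2.14% of all genes called (1.97% higher and 0.165% lower), so the share among the chains was near the background. At an unadjusted p under 0.05 there were 9 chains (20.9%), against 11.4% of all genes. No chain had 5xFAD control and WT control libraries that did not overlap, against 2.07% of all genes. The median log2 difference of the 43 chains was -0.03, against -0.0078 for all genes.

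Across diets within 5xFAD, limma called 0 of 43 chains and 0% of all genes, and edgeR and DESeq2 also called 0 chains. 4 chains (9.3%) had an unadjusted p under 0.05, against 5.34% of all genes, and no chain had libraries of the 2 diets that did not overlap (0.186% of all genes). The median log2 difference of the chains was 0.03. The 95% interval lay within a 2-fold difference for 32 chains and within 1.5-fold for 14, so for the remaining chains a difference of that size was not excluded by the interval. Between 5xFAD on fucose and WT on control diet, 1 of 43 chains was called, again higher, against 2% of all genes (1.91% higher and 0.0904% lower), and 4 chains had an unadjusted p under 0.05, against 10.9%. The median was 0.09 there, against -0.010 for all genes. These comparisons share groups, since the 5xFAD control libraries enter the first pair and the WT libraries enter the genotype comparisons, so their values are set side by side below and are not independent.

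**Figure D2:**
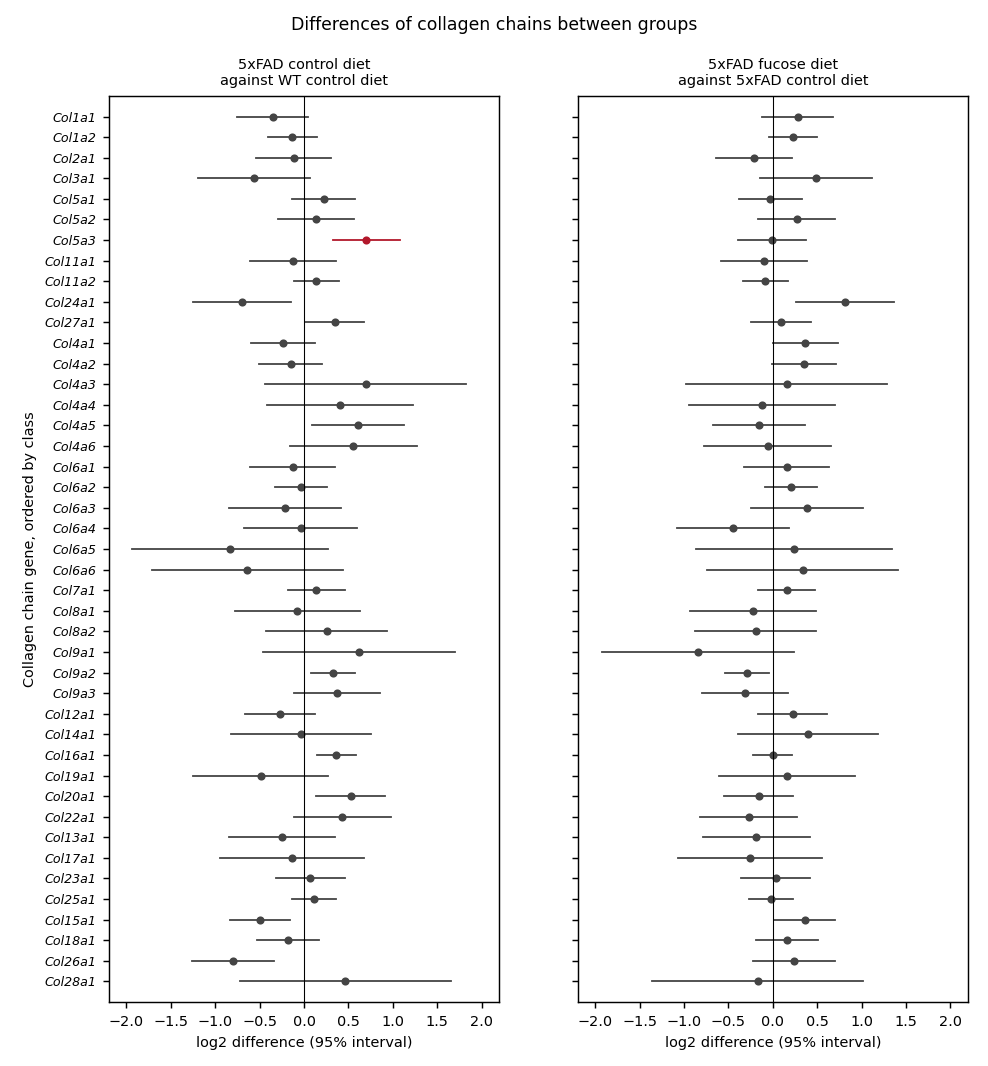
The log2 difference of each tested chain, with its 95% interval from limma, is plotted for 5xFAD against WT on the control diet (left) and for the fucose against the control diet in 5xFAD (right), with chains ordered by class. Col5a3, in red on the left, is the called chain, and most other intervals cross 0.

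The chain called was Col5a3, which encodes the α3 chain of the fibrillar type V (chr9:20770050-20815067, minus strand, mm10). It held 349.7 to 584 (median 408) normalized counts in the 5xFAD fucose group, 258 to 706 (median 424) in the 5xFAD control group and 223 to 303 (median 271) in the WT control group. The 5xFAD fucose libraries all lay above the WT libraries, and 5 of 6 5xFAD control libraries did. The log2 difference was 0.70 ± 0.18 (SE) for 5xFAD control against WT (adjusted p = 0.0422) and 0.69 ± 0.18 for 5xFAD fucose against WT (adjusted p = 0.0486), or about 1.63-fold and 1.62-fold, while between the diets it was -0.01 ± 0.18 (adjusted p = 0.995, 95% interval -0.39 to 0.37). Libraries that did not overlap made up 1.56% of all genes in the comparison of 5xFAD fucose with WT, and Col5a3 was the 1 chain among them.

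Both calls of Col5a3 sat close to the threshold. Over 21 alternatives the log2 difference of 5xFAD control against WT stayed between 0.56 and 0.85, with adjusted p from 0.00315 to 0.130, and 10 alternatives called it. Its call was lost without WT control library 2, 3, 4, 5 or 6 (adjusted p 0.0611, 0.0673, 0.0551, 0.0989 and 0.0970) and without 5xFAD control library 1, 3 or 4 (0.130, 0.0960 and 0.114). The call of 5xFAD fucose against WT was lost without any 1 of the 6 WT libraries (adjusted p 0.0508 to 0.118) and without 5xFAD fucose library 1, 2, 3, 4 or 6 (0.130, 0.0996, 0.123, 0.0663 and 0.0537). Fitting only the 2 groups, 5xFAD control against WT had Col26a1 as its called chain and not Col5a3 (adjusted p = 0.0721). Without the 3 libraries with little Xist the differences were 0.77 in both (adjusted p 0.0630 for 5xFAD control and 0.0615 for 5xFAD fucose against WT).

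Of the microglial markers, 4 of 6 were also called higher in 5xFAD in both comparisons with WT. The shares of all genes were 1.97% for 5xFAD control and 1.91% for 5xFAD fucose. None of these markers was at 0. Their summed normalized counts were 15592 to 23252 in the 5xFAD fucose group, 17807 to 20273 in the 5xFAD control group and 9888 to 12125 in the WT control group. Their part in the Col5a3 result was not tested. The lists of 8 other cell types (meningeal fibroblasts, pericytes, smooth muscle, endothelium, choroid plexus, astrocytes, oligodendrocytes and neurons) had 0 of 57 genes called by limma or edgeR in any comparison. Over all genes limma called 2.14%, 0% and 2% in 5xFAD control against WT, fucose against control diet and 5xFAD fucose against WT. DESeq2 called 1 of the 57, an astrocyte marker, in each comparison with WT. At an unadjusted p under 0.05 limma had 4, 1 and 4 of the 57 in these 3 comparisons, against 11.4%, 5.34% and 10.9% of all genes. In each comparison with WT, 3 of those 4 were astrocyte markers, from a list of 5.

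**Figure D3:**
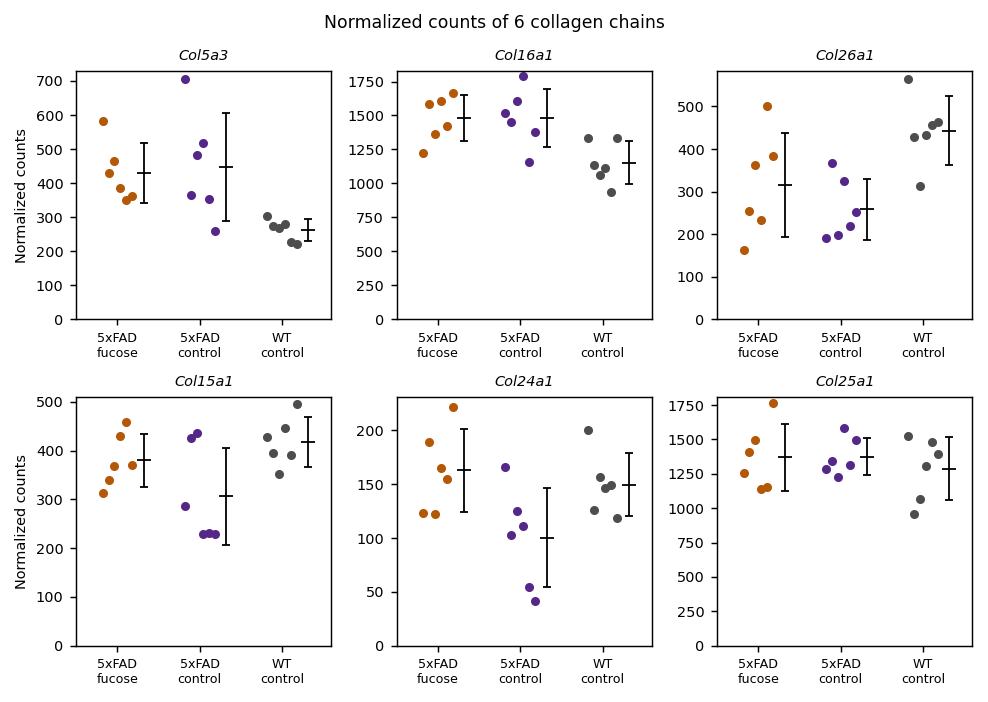
Normalized counts of 6 chains are plotted for each library (points) with the group mean and SD (bars), for 5xFAD on fucose, 5xFAD on control diet and WT on control diet. Col5a3 lies higher in both 5xFAD groups than in WT, Col15a1 and Col24a1 have 4 of 6 5xFAD control libraries below every WT library, and Col25a1 overlaps throughout.

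The other chains of type V, which forms mixed fibrils with type I, did not pass the test. Col5a1 held 529.7 to 862 (median 572) normalized counts in the 5xFAD fucose group, 515 to 798 (median 591) in the 5xFAD control group and 398 to 811 (median 530.3) in the WT control group. Col5a2, whose chain also joins type V, held 103 to 157 (median 145) in the 5xFAD fucose group, 80.7 to 196 (median 97.96) in the 5xFAD control group and 85.6 to 121 (median 102) in the WT control group. Their log2 differences were 0.22 ± 0.17 and 0.14 ± 0.21 for 5xFAD control against WT and -0.03 ± 0.17 and 0.27 ± 0.21 for fucose against control diet, and the groups overlapped for both. The difference between Col5a3 and its partners was not tested.

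The chains of type I and type III, the main fibrils of meninges and vessel walls, did not pass the test in any comparison. Col1a1 held 322 to 600.1 (median 493) normalized counts in the 5xFAD fucose group, 269.5 to 443 (median 429) in the 5xFAD control group and 306 to 787 (median 482) in the WT control group. Col1a2, its partner in the type I trimer, held 429.9 to 666 (median 585) in the 5xFAD fucose group, 421 to 601 (median 470.2) in the 5xFAD control group and 398 to 676 (median 506) in the WT control group. Col3a1, which forms type III on its own, held 54.9 to 110.1 (median 92.3) in the 5xFAD fucose group, 50.04 to 83.96 (median 55.7) in the 5xFAD control group and 32.2 to 148 (median 111) in the WT control group. All 3 had a negative log2 difference for 5xFAD control against WT (-0.35 ± 0.19, -0.13 ± 0.13 and -0.56 ± 0.30, adjusted p 0.521, 0.772 and 0.505) and a positive one for fucose against control diet (0.28 ± 0.19, 0.23 ± 0.13 and 0.49 ± 0.30, adjusted p 0.825, 0.822 and 0.822). The 5xFAD control group is the lower in both, and it is the same 6 libraries. The summed meningeal fibroblast markers were 8170 to 12916 (median 8953) in the 5xFAD fucose group, 6378 to 13072 (median 9009) in the 5xFAD control group and 8431 to 11690 (median 11101) in the WT control group, with none of 13 markers at 0. Their part in these values was not tested.

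Among the remaining fibrillar chains, Col24a1 had the smallest p of any chain between the diets. It held 122 to 222 (median 160.3) normalized counts in the 5xFAD fucose group, 41.7 to 166 (median 107) in the 5xFAD control group and 118 to 201 (median 148) in the WT control group. 4 of 6 5xFAD control libraries lay below all WT libraries, and 2 of 6 5xFAD fucose libraries lay above all 5xFAD control libraries. On the log2 scale the difference was -0.70 ± 0.27 for 5xFAD control against WT (unadjusted p = 0.0152, adjusted p = 0.262 in limma) and 0.81 ± 0.27 for fucose against control diet (unadjusted p = 0.0059, adjusted p = 0.822), so neither passed. 5xFAD on fucose and WT lay close to one another, at 0.11 ± 0.27.

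Col27a1, a fibrillar chain known from cartilage, held 435 to 633 (median 578) normalized counts in the 5xFAD fucose group, 316 to 873 (median 502) in the 5xFAD control group and 346 to 459 (median 409.9) in the WT control group. 5 of 6 libraries of each 5xFAD group lay above every WT library, and the remaining 5xFAD control library lay below them all. Its log2 difference was 0.34 ± 0.16 for 5xFAD control against WT (adjusted p = 0.425) and 0.44 ± 0.16 for 5xFAD fucose against WT (adjusted p = 0.259), which did not pass. Col2a1, the main chain of cartilage fibrils, held 85.7 to 216 (median 180.5) in the 5xFAD fucose group, 142 to 260.2 (median 187) in the 5xFAD control group and 165 to 251 (median 226) in the WT control group, and Col11a2, a partner of type II in cartilage and the most abundant fibrillar chain here per kilobase, held 1459 to 2514 (median 2147) in the 5xFAD fucose group, 1929 to 2457 (median 2188) in the 5xFAD control group and 1487 to 2463 (median 2008) in the WT control group. Neither differed beyond the spread between libraries (-0.12 ± 0.21 and 0.14 ± 0.12 for 5xFAD control against WT, -0.21 ± 0.21 and -0.09 ± 0.12 between the diets). Col11a1, the other type XI chain, had differences of -0.12 ± 0.23 and -0.10 ± 0.23.

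In basement membranes, the α1 and α2 chains of type IV form the network found around all vessels. Their genes lie head to head on chromosome 8, and their annotated first exons overlap. Col4a1 held 1087 to 2273 (median 1589.7) normalized counts in the 5xFAD fucose group, 688 to 1618 (median 1269) in the 5xFAD control group and 1273 to 1645 (median 1456) in the WT control group. Col4a2 held 2568 to 4293 (median 3618) in the 5xFAD fucose group, 1589.8 to 3363 (median 2850.0) in the 5xFAD control group and 2354 to 3446 (median 3163) in the WT control group. In both, 3 of 6 5xFAD fucose libraries lay above all 5xFAD control libraries. Between the diets the log2 difference was 0.37 ± 0.17 for Col4a1 (unadjusted p = 0.0491) and 0.35 ± 0.17 for Col4a2 (unadjusted p = 0.0537), and both had an adjusted p of 0.822 in limma. Against WT the 5xFAD control group had -0.24 ± 0.17 and -0.15 ± 0.17, and the 5xFAD fucose group 0.13 ± 0.17 and 0.20 ± 0.17. The endothelial markers, of which none of 8 was at 0, summed to 8448 to 9531 in the 5xFAD fucose group, 8463 to 10413 in the 5xFAD control group and 8302 to 10487 in the WT control group.

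The other type IV chains build the membranes of kidney, eye, ear and smooth muscle and were far lower, between 2.49 (Col4a3) and 16.5 (Col4a5) normalized counts per kb. Col4a5 held 72.7 to 151 (median 118) normalized counts in the 5xFAD fucose group, 96.1 to 143 (median 130.5) in the 5xFAD control group and 50.3 to 141 (median 74.4) in the WT control group, with a log2 difference of 0.60 ± 0.25 for 5xFAD control against WT (adjusted p = 0.328). The 5xFAD control libraries lay in the upper part of the WT range, and 1 of them above it. Col4a3, Col4a4 and Col4a6 had differences of 0.70 ± 0.55, 0.41 ± 0.40 and 0.55 ± 0.35 in the same comparison, all with wide intervals. Against WT the 5xFAD fucose group had positive differences in all 6 type IV chains, from 0.13 to 0.85, of which none passed. There 27 of 43 chains and 8976 of 18808 genes had positive differences.

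The multiplexins Col15a1 and Col18a1 sit in basement membranes, and a piece of the type XVIII chain is endostatin. Col15a1 held 313 to 458 (median 369) normalized counts in the 5xFAD fucose group, 229 to 436 (median 258) in the 5xFAD control group and 351 to 496 (median 411) in the WT control group. The 5xFAD control group split, with 4 of 6 libraries at 286 or less and below all WT libraries, and the other 2 at 426 and 436. This gave a log2 difference of -0.50 ± 0.16 for 5xFAD control against WT (unadjusted p = 0.006, adjusted p = 0.155) and 0.36 ± 0.16 for fucose against control diet (unadjusted p = 0.0399, adjusted p = 0.822). Neither passed. Of 21 alternatives 1 called the first, a limma fit that left out a library (adjusted p = 0.0434). Col18a1 held 404 to 693 (median 524) in the 5xFAD fucose group, 342 to 585 (median 554) in the 5xFAD control group and 453 to 803 (median 522) in the WT control group, with differences of -0.18 ± 0.17 and 0.16 ± 0.17, and the groups overlapped. Without the 3 libraries with little Xist these differences were 0.028 and -0.0093.

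The type VI chains assemble into beaded filaments that tie basement membranes to the tissue around them. Col6a1, the most abundant chain per kilobase, held 2239.8 to 4217 (median 3212) normalized counts in the 5xFAD fucose group, 2091 to 4082 (median 2782) in the 5xFAD control group and 1783 to 4707 (median 3023) in the WT control group. Col6a2 held 920.2 to 1217 (median 1170.5) in the 5xFAD fucose group, 800.1 to 1175 (median 963) in the 5xFAD control group and 607 to 1385 (median 1057) in the WT control group. Col6a3, the long chain of the same filament, held 75.6 to 267 (median 146) in the 5xFAD fucose group, 55.6 to 153 (median 106) in the 5xFAD control group and 69.1 to 191 (median 119) in the WT control group. In these chains the WT libraries spanned most of the range of the 5xFAD libraries. For 5xFAD control against WT the differences were -0.13 ± 0.23, -0.03 ± 0.14 and -0.22 ± 0.31, and for fucose against control diet 0.16 ± 0.23, 0.21 ± 0.14 and 0.39 ± 0.31, and in both comparisons the adjusted p was at least 0.825. All 6 type VI chains had negative differences for 5xFAD control against WT, from -0.84 to -0.03, and none passed. That of Col6a2 was 0.0094 without the 3 libraries with little Xist. In the same comparison 23 of 43 chains and 9697 of 18808 genes had negative differences. Col6a4, Col6a5 and Col6a6 lie in tandem on chromosome 9, and of these Col6a5 and Col6a6 were among the lowest chains, at 2.91 and 2.86 normalized counts per kb. Col6a4 had the larger difference between the diets of these 3 (-0.45 ± 0.31), with 37.3 to 134 (median 78.7) normalized counts in the 5xFAD fucose group and 66.8 to 129.8 (median 99.8) in the 5xFAD control group.

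Fibril-associated collagens lie on the surface of fibrils and do not form fibrils themselves. Col16a1, which per kilobase was the highest of this class after Col9a3, held 1226 to 1668 (median 1504) normalized counts in the 5xFAD fucose group, 1159 to 1788 (median 1487) in the 5xFAD control group and 936 to 1333 (median 1128) in the WT control group. In each 5xFAD group 5 of 6 libraries lay above every WT library. Differences were 0.36 ± 0.11 for 5xFAD control against WT (adjusted p = 0.0896) and 0.36 ± 0.11 for 5xFAD fucose against WT (adjusted p = 0.0971), just short of the threshold, with 0.00 ± 0.11 between the diets. Of 21 alternatives 2 called Col16a1 in 5xFAD control against WT, DESeq2 on the recovered reads and 1 fit that left out a library. In 5xFAD fucose against WT 1 of 21 called it, a limma fit that left out a library (adjusted p = 0.0432). Col20a1 held 212 to 362 (median 254) in the 5xFAD fucose group, 172 to 391 (median 319) in the 5xFAD control group and 153 to 271 (median 199) in the WT control group, with 4 of 6 5xFAD control libraries above every WT library and a difference of 0.52 ± 0.19 for 5xFAD control against WT (adjusted p = 0.22). Of 21 alternatives 1 called Col20a1 there, a limma fit that left out a library (adjusted p = 0.0362).

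Type IX, known from cartilage, is built from Col9a1, Col9a2 and Col9a3. Col9a2 held 398 to 573 (median 494) normalized counts in the 5xFAD fucose group, 479.7 to 702 (median 626) in the 5xFAD control group and 416 to 585 (median 473) in the WT control group. 4 of 6 5xFAD control libraries lay above every WT library, and 3 of 6 5xFAD fucose libraries lay below every 5xFAD control library. The difference was 0.33 ± 0.12 for 5xFAD control against WT (unadjusted p = 0.0128) and -0.29 ± 0.12 for fucose against control diet (unadjusted p = 0.0234), with adjusted p of 0.241 and 0.822. Col9a3 had the same signs, 0.37 ± 0.23 and -0.32 ± 0.23, and so did Col9a1, 0.62 ± 0.52 and -0.84 ± 0.52, and neither passed. The remaining fibril-associated chains (Col12a1, Col14a1, Col19a1 and Col22a1) had differences from -0.49 to 0.43 for 5xFAD control against WT and none passed.

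Col25a1 is the transmembrane collagen of neurons whose shed ectodomain accumulates in amyloid plaques. It held 1139 to 1768 (median 1329) normalized counts in the 5xFAD fucose group, 1227 to 1582 (median 1329) in the 5xFAD control group and 959 to 1526 (median 1350.2) in the WT control group. The groups overlapped throughout. Its log2 difference was 0.11 ± 0.12 for 5xFAD control against WT (95% interval -0.14 to 0.36, adjusted p = 0.795), -0.02 ± 0.12 for fucose against control diet (95% interval -0.27 to 0.23) and 0.09 ± 0.12 for 5xFAD fucose against WT. Between the diets it was 0.016 without the 3 libraries with little Xist. With 24628 reads over all libraries this chain was among the best measured, and each interval lay within a 1.5-fold difference. Col13a1, Col17a1 and Col23a1, which anchor cells at junctions and hemidesmosomes, had differences of -0.25 ± 0.29, -0.13 ± 0.39 and 0.07 ± 0.19 for 5xFAD control against WT.

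Col26a1, a short chain with an EMI domain, was the lower-going chain nearest to a call. It held 162 to 501 (median 309) normalized counts in the 5xFAD fucose group, 191 to 366 (median 236) in the 5xFAD control group and 314 to 564 (median 445) in the WT control group. 4 of 6 5xFAD control libraries and 3 of 6 5xFAD fucose libraries lay below every WT library. The difference was -0.80 ± 0.22 for 5xFAD control against WT (adjusted p = 0.0687) and -0.56 ± 0.22 for 5xFAD fucose against WT (adjusted p = 0.32), and 0.24 ± 0.22 between the diets. DESeq2 (adjusted p = 0.0195), the fit of only the 2 groups (0.0172) and the fits without WT control library 3 (0.0407) or 5xFAD control library 2 (0.0340) called the first, and the other 17 of 21 alternatives did not. Col7a1, which forms anchoring fibrils under epithelia, held 208 to 231 (median 217) in the 5xFAD fucose group, 146 to 259.5 (median 197) in the 5xFAD control group and 136 to 223 (median 176) in the WT control group and did not pass in any comparison. Col8a1 and Col8a2, network chains known from the cornea, differed by -0.07 ± 0.34 and 0.25 ± 0.33 for 5xFAD control against WT and by -0.23 ± 0.34 and -0.20 ± 0.33 between the diets.

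Markers of the choroid plexus, the tissue in the ventricles that secretes cerebrospinal fluid, varied widely between libraries. The 8 markers (Ttr, Kl, Folr1 and others), none at 0, summed to 23308 to 96182 normalized counts in the 5xFAD fucose group (median 42591), 27665 to 136772 in the 5xFAD control group (median 85915) and 20557 to 126844 in the WT control group (median 39638). Most of each sum was Ttr, which alone held 21461 to 91276, 25958 to 130617 and 19259 to 120024 in the same groups. A score per library, the mean log2 value of the 8 markers, was compared with each of the 43 tested chains across the 18 libraries. This comparison was chosen after the values had been seen. 5 of the 43 chains were related to it at an adjusted permutation p under 0.05, all of them positively, which is 11.6% of the chains. Among all tested genes other than the markers, 0.91% had an r at least as high as the lowest of these 5.

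Col8a2 followed the score most closely, with Pearson's r = 0.95 and Spearman's rho = 0.94 (adjusted permutation p = 0.000215 and 0.00043, raw p 1e-05 for both, the smallest that 100000 resamples can give). The relation of Col8a2 held within each group (r = 0.98 in 5xFAD fucose, 0.96 in 5xFAD control and 0.95 in WT control) and without the 2 libraries farthest from the median score (r = 0.94). Col9a3 had r = 0.90 and rho = 0.84 (adjusted permutation p = 0.000215 and 0.00086), with 0.95, 0.98 and 0.86 in those groups and 0.89 without the 2 farthest libraries. Col8a1 had r = 0.83 and rho = 0.82, with 0.89, 0.77 and 0.90 in the groups and 0.89 without the 2 farthest. Col4a4 had r = 0.79 and rho = 0.80, with 0.66, 0.83 and 0.83 in the groups and 0.75 without the 2 farthest. Col6a3 was the weakest, with r = 0.65 (adjusted permutation p = 0.0315) and rho = 0.62 (adjusted permutation p = 0.0538), and r = 0.51 without the 2 farthest. Without the 3 libraries with little Xist 4 of these relations passed, and Col6a3 did not. The chain and the score of a library share its size factor.

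**Figure D4:**
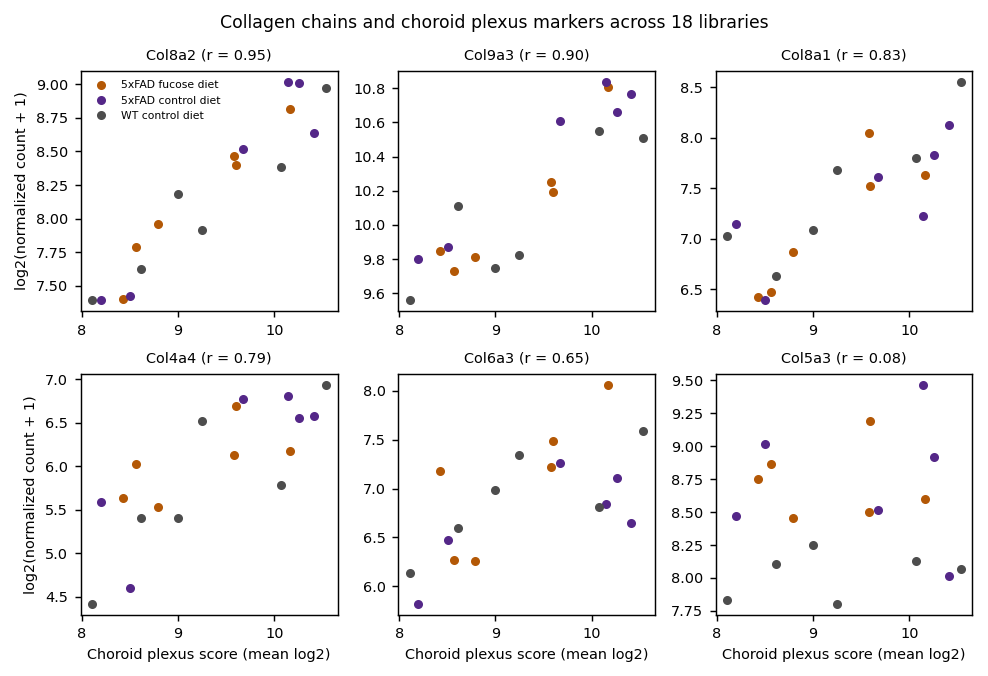
For 6 chains, log2(normalized count + 1) is plotted against the choroid plexus score, the mean log2 value of 8 markers, with 1 point per library coloured by group. Col8a2, Col9a3, Col8a1, Col4a4 and Col6a3 climb with the score in all groups, whereas Col5a3 does not (r = 0.08).

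The plots of chains against the choroid plexus score show the groups mixed along the line. Across libraries Col8a1, Col8a2, Col9a3, Col4a4 and Col6a3 move with this marker list, and its part in their differences between groups was not tested. Col5a3 had r = 0.08 with the score. Another set of relations joined 10 chains (types I, III, IV, VI, XVIII and XXV) to the scores of meningeal fibroblasts, pericytes and endothelium. Of those 30 pairs 0 passed, and the largest was Col1a2 with the meningeal fibroblast score (r = 0.57, rho = 0.52, adjusted permutation p = 0.418 and 0.903). The other chains were not compared with these scores, and no share of all genes was computed. Across libraries the 3 scores spanned only 8.25 to 9.25, 8.49 to 9.02 and 9.58 to 9.93, against 8.11 to 10.53 for choroid plexus. With so little spread, a failure to pass does not show that a chain is unrelated to these cells.

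Chains of 1 type were also compared with each other, in 39 pairs chosen after the values had been seen, and 5 pairs passed. Pairs of chains of different types were not compared, so no background share stands beside this count. Col6a1 and Col6a2, neighbours on chromosome 10, had r = 0.81 and rho = 0.75 (adjusted permutation p = 0.00195 and 0.0107), and r was 0.77 in 5xFAD fucose, 0.80 in 5xFAD control and 0.87 in WT control. Col8a1 and Col8a2 had r = 0.76 and rho = 0.71, with r between 0.70 and 0.89 in the groups. Col8a1 and Col8a2 also followed the choroid plexus score (r = 0.83 and 0.95), as did Col4a4 (r = 0.79). The part of that score in these pairs was not tested. Col4a1 and Col4a2 had r = 0.78 (adjusted permutation p = 0.00546) but rho = 0.45 (adjusted permutation p = 0.203), and r was 0.56 without the 2 farthest libraries, so that this relation leans on few libraries. Col4a5 followed Col4a4 (r = 0.67, rho = 0.76, adjusted permutation p = 0.0181 and 0.0107). It followed Col4a3 by r = 0.71 (adjusted permutation p = 0.0125) but not by rho = 0.58 (adjusted permutation p = 0.0946). Without the 2 farthest libraries r was 0.56 for both pairs, and Col4a3 and Col4a5 had r = -0.24 within the 5xFAD control group. These 3 chains form a trimer, and its remaining pair, Col4a3 with Col4a4, did not pass (r = 0.53, rho = 0.56, adjusted permutation p = 0.105 and 0.0946). Without the 3 libraries with little Xist 4 pairs passed: Col4a1 with Col4a2 and Col4a4 with Col4a5 did not, and Col6a5 with Col6a6 did.

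The enzymes and partners of collagen were read from 4 lists of 72 genes in all. These lists were chosen with earlier results of these data known. Their shares beside those of all genes are therefore not an independent comparison. Of the enzymes and chaperones that modify, fold, trim and cross-link collagen, 2 of the 29 tested genes (31 listed) were higher in 5xFAD control than in WT, against 1.97% of all genes, and none was lower. P4ha3, a subunit of the prolyl hydroxylase that stabilises the triple helix, held 298 to 436 (median 382) normalized counts in the 5xFAD fucose group, 262 to 409 (median 336) in the 5xFAD control group and 176 to 283 (median 198) in the WT control group. Its log2 difference was 0.70 ± 0.14 for 5xFAD control against WT (adjusted p = 0.00518) and 0.84 ± 0.14 for 5xFAD fucose against WT (adjusted p = 0.000768), and all 6 5xFAD fucose libraries lay above WT. Lox, the lysyl oxidase that starts the cross-links, held 50.04 to 118 (median 71.7) in the 5xFAD fucose group, 37.5 to 135 (median 66.3) in the 5xFAD control group and 24.6 to 38.7 (median 29.5) in the WT control group, with 1.13 ± 0.30 (adjusted p = 0.0456) and 1.26 ± 0.30 (adjusted p = 0.0209) in these comparisons. The Lox call of 5xFAD control against WT was kept in 9 of 21 alternatives, and its adjusted p was largest when leaving out 5xFAD control library 6 (adjusted p = 0.134) or 4 (0.126). The median of the 29 genes was 0.08, against -0.0078 for all genes.

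Of the collagen receptors, 1 of 9 tested genes (11 listed) was higher in each 5xFAD group than in WT, against 1.97% (5xFAD control) and 1.91% (5xFAD fucose) of all genes. It was Lair1, an inhibitory receptor of immune cells that binds collagen. It held 472 to 785 (median 592) normalized counts in the 5xFAD fucose group, 454 to 735 (median 592) in the 5xFAD control group and 236 to 284 (median 246) in the WT control group, and every 5xFAD library lay above every WT library. The differences were 1.22 ± 0.13 for 5xFAD control and 1.24 ± 0.13 for 5xFAD fucose against WT (adjusted p = 1.02e-06 and 1.09e-06 in limma). Mrc2, an endocytic receptor that takes up collagen fragments, held 547 to 992 (median 748) in the 5xFAD fucose group, 440.0 to 964 (median 675) in the 5xFAD control group and 381 to 596 (median 455) in the WT control group and had differences of 0.54 ± 0.18 (adjusted p = 0.155) and 0.65 ± 0.18 (adjusted p = 0.0583), short of the threshold. In 5xFAD fucose against WT 5 of 21 alternatives called it, among them DESeq2 (adjusted p = 0.00854), the fit of only the 2 groups (0.0485) and the one without the 3 libraries with little Xist (0.0242). In 5xFAD control against WT 1 alternative called it, the one without 5xFAD control library 4 (adjusted p = 0.0353). The discoidin receptor Ddr2 and the integrin chain Itgb1 had -0.04 ± 0.22 and 0.02 ± 0.07 for 5xFAD control against WT, and Ddr2 had 0.095 without the 3 libraries with little Xist.

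Of the proteases and inhibitors of collagen breakdown, 3 of 13 tested genes (15 listed) were higher in 5xFAD control and 4 in 5xFAD fucose than in WT, against 1.97% and 1.91% of all genes, and none was lower. The lysosomal cathepsins Ctsb and Ctsl degrade collagen taken up by cells. Ctsb held 36284 to 44414 (median 38072) normalized counts in the 5xFAD fucose group, 37016 to 42296 (median 40590.3) in the 5xFAD control group and 25425 to 29604 (median 27301) in the WT control group, and Ctsl held 5098 to 7031 (median 6067) in the 5xFAD fucose group, 5192 to 6786 (median 5500.3) in the 5xFAD control group and 3551 to 4289 (median 3718) in the WT control group. For both genes every 5xFAD library lay above every WT library, with differences of 0.54 ± 0.07 and 0.60 ± 0.08 for 5xFAD control and 0.52 ± 0.07 and 0.65 ± 0.08 for 5xFAD fucose against WT (largest adjusted p 5.18e-05). Timp1, an inhibitor of the matrix metalloproteinases that cut collagen, held 24.5 to 74.1 (median 42.1) in the 5xFAD fucose group, 38.6 to 78.03 (median 68.3) in the 5xFAD control group and 6.63 to 19.8 (median 13.6) in the WT control group, with 2.18 ± 0.33 (adjusted p = 0.000126) and 1.68 ± 0.33 (adjusted p = 0.00293), again with no overlap with WT. Timp2 passed in 5xFAD fucose against WT (0.30 ± 0.08, adjusted p = 0.0415), where 4 of 6 libraries lay above WT, and 9 of 21 alternatives called it. In 5xFAD control against WT it had 0.21 ± 0.08 (adjusted p = 0.26). The summed microglial markers given beside Col5a3 were also higher in both 5xFAD groups than in WT. Their relation to these genes across libraries was not computed, and their part was not tested.

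**Figure D5:**
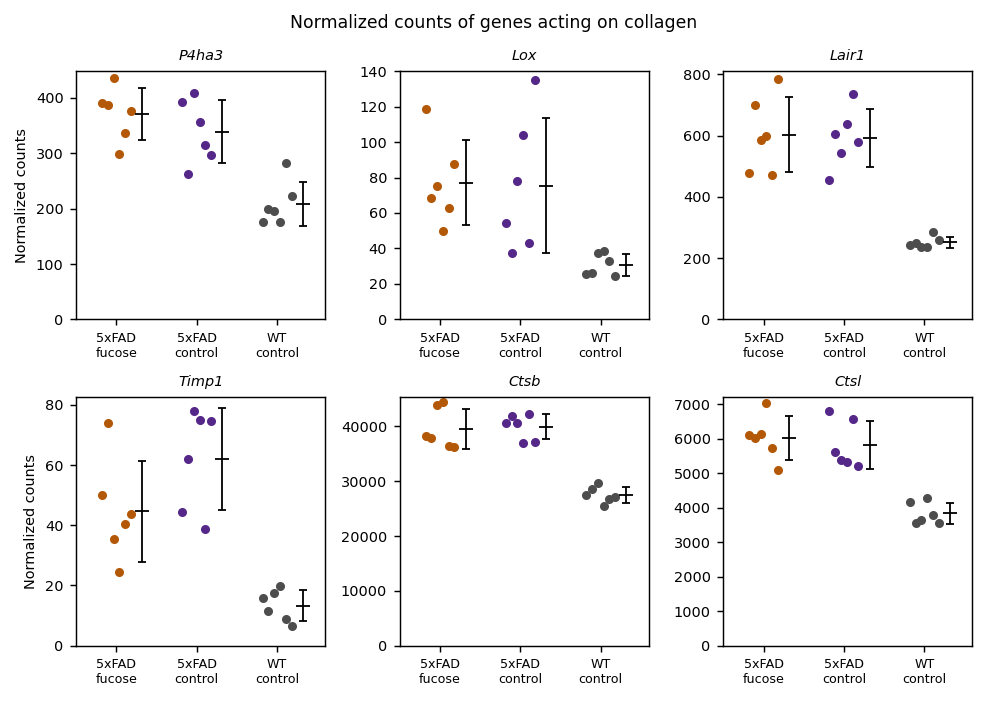
Normalized counts of 6 genes that modify, bind or degrade collagen are plotted for each library (points), with the group mean and SD (bars). Both 5xFAD groups lie above WT for Lair1, Ctsb, Ctsl and Timp1 with no overlap, and for P4ha3 and Lox a 5xFAD control library overlaps the WT range.

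Of the laminins, nidogens and other partners of type IV in basement membranes, 0 of 15 genes were called in any comparison by limma. Its unadjusted p was under 0.05 for 1 gene in 5xFAD control against WT, 0 in fucose against control diet and 2 in 5xFAD fucose against WT. Over all genes these comparisons had 11.4%, 5.34% and 10.9% at that p, and limma called 2.14%, 0% and 2%. edgeR called 0, and DESeq2 called 1, Sparc, in 5xFAD control against WT. Sparc, which binds collagen and is made by astrocytes and vessels, had 0.43 ± 0.13 for 5xFAD control against WT (limma adjusted p = 0.108). There 2 of 21 alternatives called Sparc. Lamc3 had 0.44 ± 0.20 for 5xFAD fucose against WT (limma adjusted p = 0.422). The median log2 difference of the 15 genes was -0.09 for 5xFAD control against WT and 0.09 for fucose against control diet. Between the diets 0 of the 66 tested genes of the 4 lists were called by limma, edgeR or DESeq2, and limma called 0% of all genes. An unadjusted p under 0.05 in limma was found for 3 of the 66, against 5.34% of all genes. The smallest p-values there were those of Colgalt1, which adds galactose to collagen (0.28 ± 0.12), and Loxl1, a relative of Lox (-0.48 ± 0.21), each with an adjusted p of 0.822. The plot of genes acting on collagen shows both diets of 5xFAD side by side, and their points overlap for all 6 genes.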

How the data were processed

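Poly(A) RNA of mouse brain was sequenced from randomly primed cDNA, per the labels' protocols. The tools in the submitters' processing notes, given without roles, are DESeq2 2.11.40.8, featureCounts 2.0.3, HISAT2 2.2.1 and Trimmomatic 0.39, with build mm10; annotation and strandedness of counting are not stated there. The deposited values are a signal: gene counts that the authors divided by 1 size factor per library. All of them (100%, tolerance 0.001 reads) were whole multiples of what 1 read is worth, so whole reads were recovered. 2 stray cells of the table were not used. Gene positions were written 1-based, and 42 of 44 chains have the same coordinates in GENCODE M21.

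Low genes were removed with filterByExpr (edgeR 4.0.16, minimum count 10) on the recovered reads. The test was limma 3.58.1 in R 4.3.3 on log2(normalized count + 1), pseudocount 1, with trend and robust set, on all 18 libraries together, and a gene was called at a Benjamini-Hochberg adjusted p under 0.05 over all 18808 genes. Errors are SD for means and SE for log2 differences, and differences on this scale understate those of low genes. Correlations have 2-sided permutation p-values (100000 resamples), adjusted within each family. The fit was tested on simulated data.

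The members, lists, alternatives and this test were chosen with earlier results of these data, the unit of the table included, known. Named chains are every called chain, the 3 with the smallest p in each direction of each comparison, the highest per kilobase of each class, and Col1a1, Col1a2, Col3a1, Col4a1, Col4a2, Col6a1, Col6a2, Col6a3, Col18a1 and Col25a1. Other chains were named after their values were seen. From each list the called genes (up to 6), or else the 2 with the smallest p, were named. Alternatives were edgeR quasi-likelihood and DESeq2 1.42.0 on the recovered reads, TMM factors, pseudocounts of 0.25 and 4, no filter, fits of only the 2 groups compared, a replicate block, leaving out the 3 libraries with under 100 normalized counts of Xist, and leaving out each library. Library numbers were not taken as pairs.

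No 2 libraries of a group were copies: in each of the 45 such pairs the counts differed beyond sampling noise (chi-square at least 16.0 and at most 76.1 per degree of freedom).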

Additional observations from a re-analysis of the deposited data

Results flagged for a closer look

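In 7 of the 129 sets of 6 libraries examined (43 named genes in 3 groups), 1 library stood far from the other 5, by more than the 95% critical value of Dixon's gap-to-range ratio. About 1 in 20 such sets does so by chance, which is 6.45 of 129. Each value below is a normalized count.

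Among chains, Col9a1 was 111 in 5xFAD fucose library 4, against 5.92 to 38.3 in the other 5xFAD fucose libraries. Col2a1 was 85.7 in 5xFAD fucose library 1, against 170 to 216 in the others of its group. Col6a2 was 920.2 in 5xFAD fucose library 6, against 1113 to 1217. Col18a1 was 803 in WT control library 4, one of the libraries with little Xist, against 453 to 537. Among partners, Loxl1 was 237 in 5xFAD fucose library 4, against 125 to 155 in the others of its group. Timp2 was 18144.5 in 5xFAD control library 3, against 14757 to 15989, and Lamc3 was 348 in WT control library 6, against 145 to 215.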

How the results depend on the processing

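Of 43 chains, the count called in 5xFAD control against WT was 1; it was 3 with DESeq2 (Col5a3, Col16a1 and Col26a1), 0 with no filter or without the 3 libraries with little Xist, and 0 to 3 when leaving out 1 library. In 5xFAD fucose against WT it was 1; it was 0 with edgeR, with a pseudocount of 0.25, with no filter and without those 3 libraries, and 0 to 1 when leaving out 1 library. Col5a3 then had adjusted p of 0.0785 (5xFAD control against WT) and 0.0887 (5xFAD fucose against WT) with no filter. In 5xFAD fucose against WT it had 0.0515 with edgeR and 0.0503 with the pseudocount of 0.25, and fitting only the 2 groups gave 0.0721 in 5xFAD control against WT, where the 1 chain called was Col26a1 (adjusted p = 0.0172). Between the diets the chain count was 0 in all alternatives, and over all genes it was 0 except 1 with no filter. The counts over all genes against WT, over the pathway lists and over the relations stayed within 1.5 times of their value in all alternatives run. The pathway counts and relations, and their alternatives, were added after seeing the data. The cause of these changes was not tested.

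With the replicate number as a block the chain count was 1, 0 and 1 in the 3 comparisons, with Col5a3 the chain called, and the pathway count 5, 0 and 6. The numbers were not taken to pair the libraries, because the labels do not say that they do. Deviations of same-numbered libraries correlated at -0.17 to 0.33 (median -0.0048, against -0.0099 for the 90 pairs of unlike number). Of the 18 same-numbered pairs 4 were over 0.1, and 11 of 36 correlated best with their own number. No chance level was computed for these counts.

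Of 129 single-gene results, 32 changed sign in some alternative; 0 of them were called in the reported fit, and 0 were called with the changed sign. Without the 3 libraries with little Xist the sign changed in 5xFAD control against WT at Col18a1 0.028, Col6a2 0.0094, Colgalt1 0.012 and Ddr2 0.095; in fucose against control diet in 5xFAD at Col18a1 -0.0093, Col25a1 0.016, Ctsb 0.023 and Sparc 0.017; in 5xFAD fucose against WT at Col6a1 -0.0020, Col18a1 0.019, Col3a1 0.092 and Timp3 0.10. In 5xFAD fucose against WT, edgeR and DESeq2 gave 0.15 and 0.14 for Col9a1, and -0.0025 and -0.013 for Col6a1. Leaving out 1 library at a time, the sign changed in 5xFAD control against WT for Col6a4 -0.14 to 0.13, Col4a2 -0.22 to 0.0030, Col6a2 -0.18 to 0.060, Colgalt1 -0.10 to 0.061, Itgb1 -0.0061 to 0.059, Ddr2 -0.20 to 0.055 and Fn1 -0.088 to 0.016. Leaving out 1 library at a time, the sign changed in fucose against control diet in 5xFAD for Col5a3 -0.15 to 0.14, Col16a1 -0.069 to 0.056, Col27a1 -0.048 to 0.25, Col11a2 -0.15 to 0.0099, Col25a1 -0.10 to 0.031, Lox -0.040 to 0.32, Lair1 -0.062 to 0.084, Mrc2 -0.0067 to 0.22 and Ctsb -0.051 to 0.0073. Leaving out 1 library at a time, the sign changed in 5xFAD fucose against WT for Col9a2 -0.012 to 0.093, Col9a1 -0.66 to 0.14, Col6a1 -0.14 to 0.14, Col9a3 -0.083 to 0.16, Col11a2 -0.025 to 0.15, Col18a1 -0.093 to 0.091, Col8a2 -0.077 to 0.24, Col1a1 -0.20 to 0.067, Col3a1 -0.37 to 0.063, Col6a3 -0.028 to 0.33, Timp3 -0.21 to 0.11, Agrn -0.036 to 0.071 and Nid1 -0.0028 to 0.24.

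Of 43 chains, the 95% interval lay within a 2-fold difference for 30 in 5xFAD control against WT, 32 between the diets and 28 in 5xFAD fucose against WT. In 5xFAD control against WT those 30 had a median of 7234 reads over all libraries (712 to 57020), against 1253 (163 to 6854) for the other 13, and the part of depth in this was not tested. Differences within single cell types of the brain are not resolved by whole tissue.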
